A study of Homo sapiens with 160 samples.

Results

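A set of 10 genes of the circadian clock and its direct output was followed in BEAS-2B, an immortalised line of human bronchial epithelium, over 8 treatments and 4 times. They are PER1, PER2, PER3, CRY1, CRY2, NR1D1, NR1D2, DBP, BHLHE40 and CLOCK, taken by symbol from a table of 29273 genes. All 10 were among the 14827 genes with deposited values of 1 or more in 5 or more libraries, and none was listed at 0 in any library. Confluent wild-type cells, kept overnight without serum, received the glucocorticoid mometasone (100 nM), the long-acting beta2-adrenoceptor agonist indacaterol (100 nM), the muscarinic agonist carbachol (10 µM), each pair of these, all 3 together, or vehicle. RNA was taken after 1, 2, 6 and 18 h, with 5 replicates planned per group. The labels give no separate doses for the combinations and do not say whether replicates were separate cultures, so p-values measure the spread between these libraries only. Of the 160 libraries 150 were used, 5 in each of 24 groups, 4 in each of 6 groups and 3 each for mometasone and for all 3 agents at 18 h.

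The clock is a feedback loop of transcription. CLOCK, with its partner BMAL1 (ARNTL), activates genes through the E-box, and the PER and CRY proteins made from such genes enter the nucleus and repress that activity. NR1D1 and NR1D2 encode the REV-ERB repressors, which act on ARNTL, DBP encodes an activator that binds the D-box, and BHLHE40 (DEC1) encodes a repressor that binds E-boxes. PER1 is also a textbook target of the glucocorticoid receptor and of cyclic AMP signalling, the pathways that mometasone and indacaterol engage, and glucocorticoids are used experimentally to set the phase of cultured cells.

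The promoters of PER1 and BHLHE40 are shown because these are the members that moved most, and that of PER3 because it holds a match to the D-box, the motif of the DBP protein. Each is 250 bases before to 50 after a start, 5′ to 3′ on the gene's strand, from RefSeq on GRCh38.p14, with the E-box CACGTG or the D-box TTATGTAA in capitals.
PER1, chr17:8152355-8152654, minus strand: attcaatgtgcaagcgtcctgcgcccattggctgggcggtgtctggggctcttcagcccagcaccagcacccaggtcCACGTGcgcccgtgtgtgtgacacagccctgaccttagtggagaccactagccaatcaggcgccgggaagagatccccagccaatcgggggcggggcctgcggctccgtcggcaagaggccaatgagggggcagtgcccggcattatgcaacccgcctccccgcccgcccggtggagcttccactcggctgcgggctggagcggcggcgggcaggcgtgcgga
BHLHE40, chr3:4979187-4979486, plus strand: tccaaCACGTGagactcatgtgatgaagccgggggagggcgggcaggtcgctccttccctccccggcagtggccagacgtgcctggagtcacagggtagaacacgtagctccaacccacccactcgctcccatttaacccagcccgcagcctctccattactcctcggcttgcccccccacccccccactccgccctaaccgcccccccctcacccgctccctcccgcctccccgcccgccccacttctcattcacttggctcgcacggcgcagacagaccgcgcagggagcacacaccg
PER3, chr1:7784041-7784340, plus strand: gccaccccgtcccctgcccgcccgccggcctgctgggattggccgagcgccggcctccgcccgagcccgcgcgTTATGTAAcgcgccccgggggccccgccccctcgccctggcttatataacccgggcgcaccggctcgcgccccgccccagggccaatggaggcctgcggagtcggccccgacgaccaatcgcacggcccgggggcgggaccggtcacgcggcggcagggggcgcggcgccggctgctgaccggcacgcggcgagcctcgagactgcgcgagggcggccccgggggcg

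All 10 members had at least 1 promoter in that table, which holds 35116. All motifs were searched on both strands. CACGTG was found once in the PER1 and once in the BHLHE40 window, 2 times at a second NR1D2 start, and in 7.26% of all promoters, and TTATGTAA once in the PER3 window shown, once at that NR1D2 start and in 0.886% of all. The full cyclic AMP response element TGACGTCA (1.85% of all promoters) was in none of the members' windows. Its shorter form TGACG, contained in the full element and found in 24.6% of all promoters, was in windows of PER2, CRY1, CRY2, NR1D2 and CLOCK, but not in those of PER1 and BHLHE40. AGAACA, a part of the glucocorticoid response element found in 14.8% of promoters, was in the BHLHE40 window and in no other member's. AGGTCA, the core of the site of ROR and REV-ERB proteins (13.8% of promoters), was in windows of PER1 and CRY2. No listed motif was found in the windows of NR1D1 and DBP. A match describes letters in a short window and is not a site of binding.

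The values are a per-length signal that the authors call TPM (length-scaled transcript abundance), although the columns sum to between 847289 and 1498420, with a median of 961146. Changes below are log2 differences of value + 1 from 1 limma fit over all genes, with the standard error, and a change was called at an adjusted p below 0.05. Adding 1 understates the changes of low genes, among them PER2 and NR1D1. TSC22D3, a glucocorticoid target, separated every library given mometasone from every library without it at all 4 times, at 53.7 to 453 against 5.37 to 13.9 at 1 h. The other genes set as label checks, for mometasone or indacaterol, overlapped at some or all times, and none was set for carbachol. Of 8 epithelial markers 7 passed the filter, and their summed level ran from 358 to 5967. KRT17, KRT18 and KRT8 averaged 1131, 367 and 303, whereas KRT5, KRT19 and EPCAM averaged 1.20, 0.52 and 0.26 and were each listed at 0 in at least 13 libraries. Of 6 stromal markers 5 passed, with a summed level of 299 to 899 that was mostly COL1A1 (mean 629), while ACTA2 averaged 8.54 and COL1A2, DCN, MYH11 and LUM averaged 1.63, 1.87, 1.20 and 0.078. Of 4 leukocyte markers CD68 stood between 9.46 and 28.1 and PTPRC between 0.17 and 2.30, and MS4A1 and CD3E were listed at 0 in 148 and 149 of the 150 libraries. None of 3 endothelial markers passed.

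Libraries of replicate 5 stood apart in most members, whatever the treatment. In the 29 groups that had one, the replicate 5 library was the lowest of its group in 28 for NR1D2, 26 for PER3, 26 for CLOCK, 24 for CRY1, 22 for CRY2, 21 for PER2 and 20 for BHLHE40. The median ratio to the other replicates was 0.426 for NR1D2 and 0.565 for CLOCK. DBP went the other way and was highest in replicate 5 in 24 of the 29 groups, with a median ratio of 1.58, whereas PER1 had a median ratio of 0.956. Summed signal was also higher in replicate 5, with a median of 1097480, against 925886 to 966850 in the other replicate numbers. The mitochondrial share was highest in replicate 1, with a median of 14.0%, and exceeded 20% in 6 libraries. Mometasone and all 3 agents had no replicate 5 at 1 h, and mometasone had none at 18 h, where vehicle did, so values without replicate 5 are given beside the results it touches most.

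PER1, a core repressor of the loop, had the highest mean of the 10 over all libraries, treated ones included, at 99.3. It ranged from 8.56 to 346.5 (GRCh38, chr17:8140472-8156506, minus strand). In vehicle at 1 h PER1 averaged 18.6, below CRY1 (32.6), NR1D2 (26.3) and BHLHE40 (20.4). At 1 h PER1 stood at 133, 199, 151 and 213 in the 4 mometasone libraries, against 11.4, 23.8, 22.3, 22.2 and 13.2 in the 5 vehicle libraries. At 2 h it stood at 222, 232, 191, 193 and 191 with mometasone, against 20.4, 19.7, 19.5, 15.0 and 25.4 with vehicle. The groups were far apart at both times, and the changes were 3.19 ± 0.17 at 1 h (9.13-fold, adjusted p = 5.9e-34) and 3.31 ± 0.16 at 2 h (9.94-fold, adjusted p = 3.7e-38). By size of rise PER1 was the second-ranked gene of all 14827 with mometasone at 1 h, rank 3 at 2 h, rank 18 at 6 h and rank 86 at 18 h.

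The mometasone rise was still present at the late times but smaller at the last. At 6 h PER1 stood at 121, 126, 120, 117 and 123 with mometasone, against 16.7, 15.9, 13.2, 14.5 and 15.6 with vehicle, a change of 2.93 ± 0.16 (adjusted p = 1.6e-33). At 18 h it stood at 78.6, 97.4 and 105 with mometasone, against 25.5, 24.5, 32.6 and 24.4 with vehicle, a change of 1.77 ± 0.19 (adjusted p = 3.0e-13). The groups did not overlap at either time. The change at 18 h was smaller than that at 1 h by 1.42 ± 0.26 on the log2 scale (difference of changes -1.42, adjusted p = 2.6e-05), a comparison in which 3.53% of all genes were called. PER1 fell to a mean of 93.7 ± 13.6 (SD, n = 3) with mometasone at 18 h, against 174 ± 37.8 (SD, n = 4) at 1 h, while vehicle averaged 26.8 ± 3.95 (SD, n = 4) at 18 h and 18.6 ± 5.80 (SD, n = 5) at 1 h. Both the lower mometasone level and the higher vehicle level therefore entered that difference.

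Indacaterol raised PER1 at 1 and 2 h and no difference was called at 6 or 18 h. PER1 stood at 62.4, 57.2, 54.7, 60.6 and 45.9 with indacaterol at 1 h, above every vehicle library listed for that time, a change of 1.60 ± 0.16 (3.02-fold, adjusted p = 1.2e-14). At 2 h it stood at 66.9, 65.5, 76.5, 60.9 and 48.3, again above every vehicle library, a change of 1.62 ± 0.16 (3.08-fold, adjusted p = 2.2e-15). At 6 h the indacaterol libraries held 11.5, 15.1, 8.56, 12.6 and 17.0 and overlapped vehicle, with a difference of -0.24 ± 0.16 (adjusted p = 0.90). At 18 h they held 23.8, 37.9, 30.7, 42.5 and 21.5, also overlapping vehicle (0.18 ± 0.18, adjusted p = 1). The change at 6 h was lower than at 1 h by 1.84 ± 0.23 (difference of changes -1.84, adjusted p = 5.5e-10; 1.07% of all genes called), and that at 18 h by 1.41 ± 0.23 (difference of changes -1.41, adjusted p = 1.1e-05; 0.6% called).

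Carbachol gave the smallest and least stable of the PER1 rises. At 1 h PER1 stood at 45.9, 32.5, 34.9, 31.3 and 31.2 with carbachol, all above the vehicle maximum of 23.8, a change of 0.93 ± 0.16 (1.90-fold, adjusted p = 2.4e-04). Replicate 1 held both the highest carbachol value and the lowest vehicle value, 11.4. Without replicate 1 the change was 0.68 (adjusted p = 0.12), and the call was also lost when the 1 h libraries were fitted alone. At 2 h carbachol libraries held 30.4, 29.2, 27.3, 21.2 and 30.9, higher than vehicle in 5 of 5 pairs of the same number but overlapping it, with 0.46 ± 0.16 (adjusted p = 1). The differences at 6 h (-0.13 ± 0.16) and 18 h (-0.23 ± 0.18) were not called. The changes at 6 and 18 h were below that at 1 h by 1.06 ± 0.23 and 1.15 ± 0.23 (differences of changes -1.06 and -1.15, adjusted p = 0.039 and 0.012; 0.0202% of all genes called in each), but both calls were lost without replicate 1, 2 or 5 in turn, among others.

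**Figure D1:**
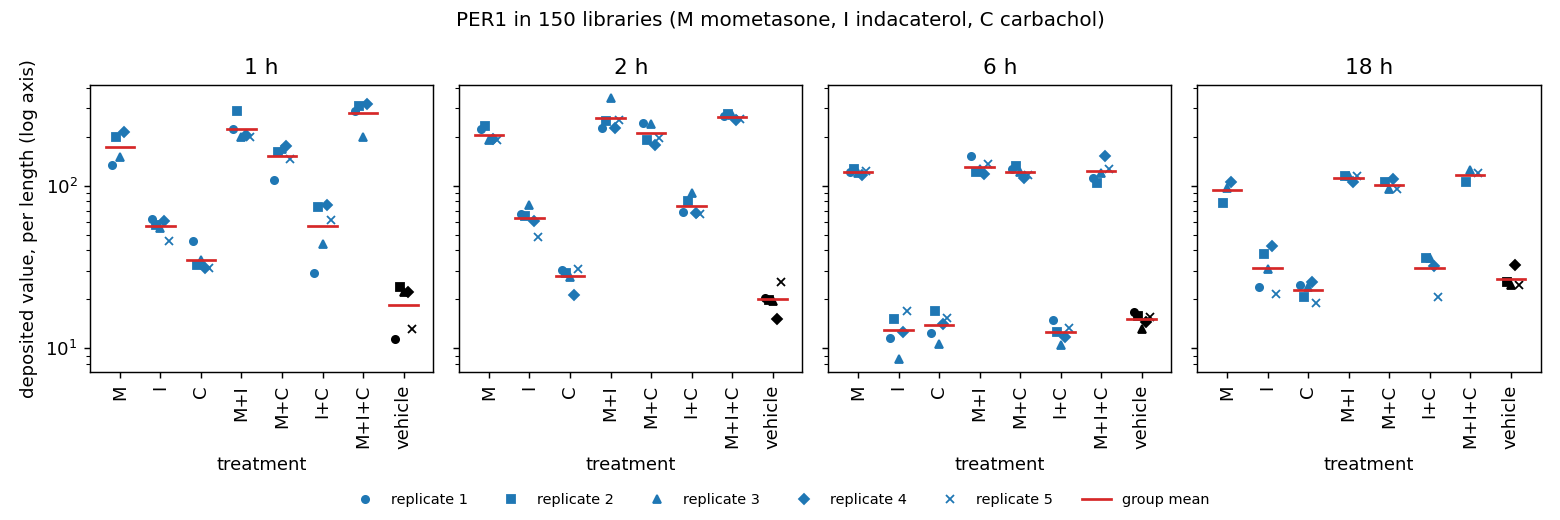
PER1 in each of the 150 libraries by treatment (M mometasone, I indacaterol, C carbachol and their combinations, then vehicle), in a panel per time; points are libraries shaped by replicate number, red lines are group means, and the y axis is the deposited per-length value on a log scale. All groups with mometasone lie well above vehicle at all 4 times, whereas indacaterol lies above it at 1 and 2 h and overlaps it at 6 and 18 h.

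The agents were set against each other at matched times, at the single dose of each. PER1 was higher with mometasone than with indacaterol by 1.60 at 1 h and 1.69 at 2 h, comparisons in which 1.5% and 5.67% of all genes were called, and by 3.17 at 6 h and 1.59 at 18 h. Every mometasone library exceeded every indacaterol library at each of the 4 times. Indacaterol exceeded carbachol by 1.16 ± 0.16 at 2 h. At 1 h the difference was 0.67, called over all libraries but lost in 4 of 14 alternative settings.

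In the vehicle cells PER1 moved far less than with mometasone. Its means were 18.6 ± 5.80 at 1 h, 19.998 ± 3.69 at 2 h, 15.1 ± 1.35 at 6 h (SD, n = 5 each) and 26.8 ± 3.95 at 18 h (SD, n = 4). The 18 h libraries lay above all 6 h libraries, and the change at 18 h against 6 h was 0.78 ± 0.17 (1.71-fold, adjusted p = 0.032; 0.054% of all genes called). This call was lost without any of replicates 2, 3, 4 or 5, with values of 0.67 to 0.83 (adjusted p = 0.053 without replicate 5), and when libraries were scaled to the same total. PER1 was called in none of the other steps, at 2 h against 1 h (0.14 ± 0.16, 0.0135% of all genes called), 6 h against 1 h (-0.22 ± 0.16, 0.324%), 18 h against 1 h (0.55 ± 0.17, 0.121%) or 6 h against 2 h (-0.37 ± 0.16, 0.425%). The time course in vehicle thus spanned 15.1 to 26.8 in group means, while at each time mometasone lay between 93.7 and 206.

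None of the other 9 members was called between vehicle times, and their values were those of 4 sampled times rather than of a full day. NR1D1, a REV-ERB repressor gene, had vehicle means of 3.85 ± 0.56, 3.30 ± 0.74, 2.47 ± 0.66 and 3.83 ± 0.35 at 1, 2, 6 and 18 h. It was lower at 6 h than at 1 h in 5 of 5 pairs of the same number, without overlap (-0.50 ± 0.15, adjusted p = 0.14). At 18 h NR1D1 was higher than at 6 h in 4 of 4 pairs, again without overlap and not called. DBP, the D-box activator gene, had means of 15.4 ± 6.28, 12.6 ± 5.08, 9.51 ± 3.92 and 17.2 ± 5.79. It was higher at 18 h than at 6 h in 4 of 4 pairs (0.82 ± 0.28, adjusted p = 0.44), and a fit with the replicate number as a block gave 0.84 (adjusted p = 0.0056). Same-numbered libraries deviated together for that step, and PER1 stayed called under the block. PER3 averaged 18.4 ± 6.53 at 18 h, where replicate 5 held 8.62 and the others 21.0, 21.7 and 22.2, and 12.002 ± 1.44 at 6 h. CLOCK, which encodes the activator, kept means between 6.34 and 7.86 at the 4 times.

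**Figure D2:**
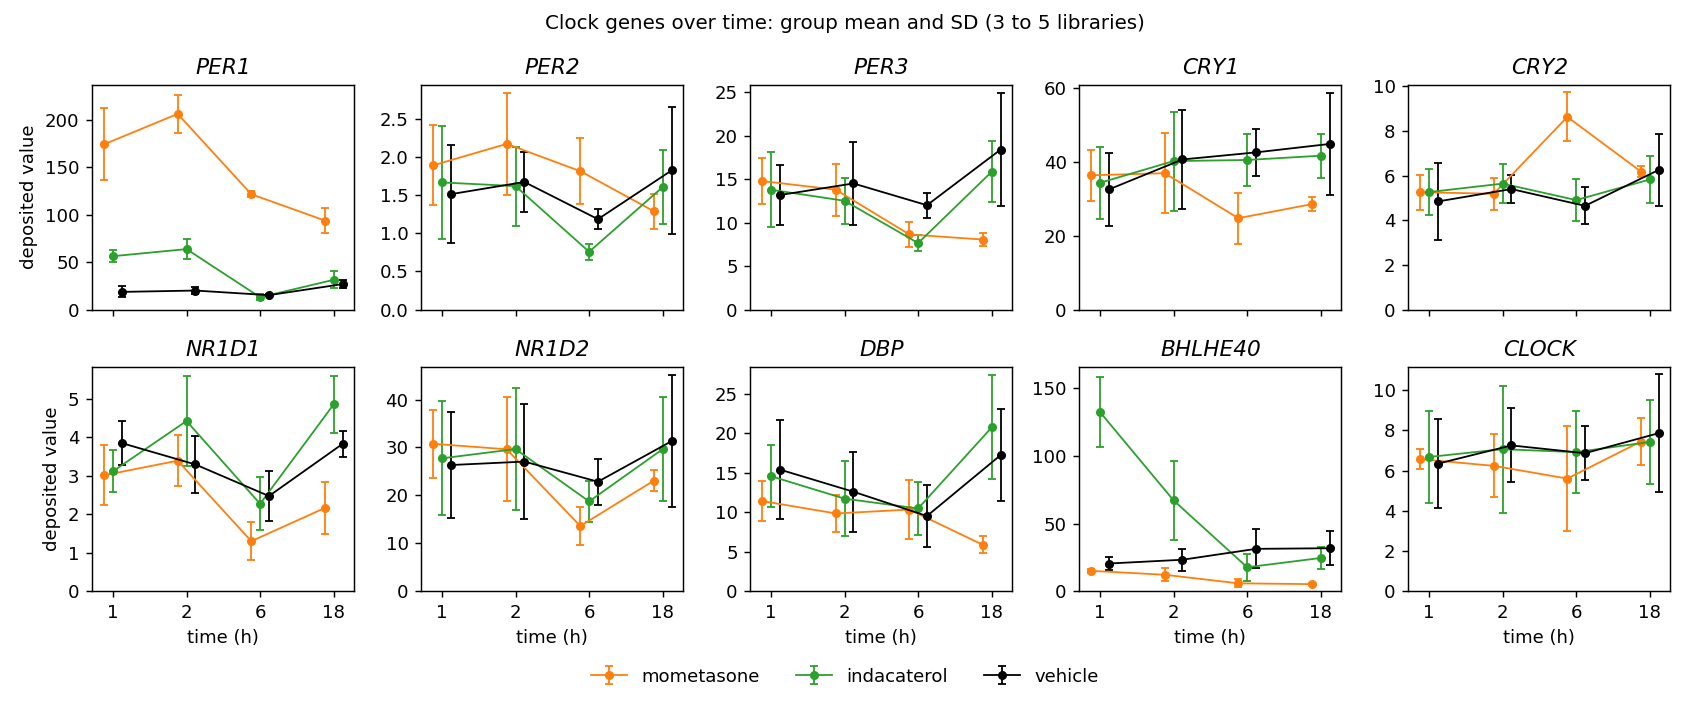
Mean deposited value ± SD of the 10 clock genes at 1, 2, 6 and 18 h (spaced evenly on the x axis) with mometasone, indacaterol and vehicle, 3 to 5 libraries a point, each y axis starting at 0. PER1 is high with mometasone at all times, BHLHE40 is high with indacaterol at 1 h and low with mometasone at 6 and 18 h, and the vehicle means of PER1 run from 15.1 at 6 h to 26.8 at 18 h.

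In the combinations PER1 kept the mometasone pattern, with the largest means at 1 and 2 h in cells given mometasone and indacaterol, with or without carbachol. With both at 1 h PER1 stood at 225, 288, 201, 205 and 198 (change against vehicle 3.56 ± 0.16), and with all 3 agents at 287, 309, 199 and 319 (3.87 ± 0.17). At 2 h the values were 226, 252, 347, 227 and 255 with mometasone and indacaterol (3.64 ± 0.16) and 267, 276, 271, 252 and 259 with all 3 agents (3.68 ± 0.16). The pair and mometasone alone overlapped at 1 h, and PER1 was not among the 1.44% of genes called between them at that time, nor among the 4.73% called at 2 h. Where carbachol was present, adding indacaterol to mometasone gave a called PER1 difference at 1 h (all 3 agents against mometasone and carbachol, 0.87 ± 0.17, adjusted p = 1.3e-04, lost when only those 2 groups were fitted) and none at 2 h (0.34 ± 0.16, adjusted p = 0.34). Mometasone with carbachol gave 108, 161, 167, 175 and 146 at 1 h (7.99-fold against vehicle) and 244, 190, 241, 178 and 198 at 2 h (3.34 ± 0.16), overlapping mometasone alone at both times. PER1 was called between these groups at no time, with differences of -0.19 at 1 h and 0.02 at 2 h. At 6 and 18 h the groups with mometasone had PER1 means of 121 to 131 and 93.7 to 116. Indacaterol with carbachol gave 1.53 ± 0.16 at 1 h and 1.86 ± 0.16 at 2 h and no call at 6 or 18 h. The call at 1 h was lost when only the 2 groups compared were fitted; replicate 1 held 28.9 there and replicates 2 and 4 held 73.9 and 75.6.

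On the log2 scale the pair gave less than the sum of the single changes. The interaction of mometasone and indacaterol was -1.22 ± 0.23 at 1 h (adjusted p = 0.0016; 0.0742% of all genes called) and -1.30 ± 0.23 at 2 h (adjusted p = 1.2e-04; 0.405% called). The value at 1 h lost its call without replicate 4 (-1.14) and when the 1 h libraries were fitted alone, whereas that at 2 h was called in all 14 settings. On the linear scale the picture differed. The pair stood 205 above vehicle at 1 h, against 193 for the sum of the separate rises (155 for mometasone and 37.6 for indacaterol), and 241 at 2 h, against 230 for that sum. The linear sums were not tested, and these gaps were small beside the SD of the pair's libraries, 37.7 at 1 h and 49.6 at 2 h. No sign of departure is therefore read on the linear scale, and the shortfall holds for the log2 scale only. The term for all 3 agents at 1 h was 1.49 ± 0.33 (adjusted p = 0.040; 0.0607% called) and lost its call in 8 of 14 settings.

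BHLHE40, the E-box repressor gene, rose with indacaterol at 1 and 2 h and was lower with mometasone at 6 and 18 h. It spanned 43.4-fold in group means, more than the 22.1-fold of PER1 (GRCh38, chr3:4979116-4985323, plus strand). At 1 h it stood at 118, 143, 165, 140 and 96.9 with indacaterol, against 21.3, 24.5, 20.9, 22.8 and 12.7 with vehicle. The groups were far apart, with a change of 2.65 ± 0.34 (6.27-fold, adjusted p = 1.0e-09). At 2 h it stood at 32.7, 97.6, 85.7, 80.9 and 39.0 with indacaterol, against 18.2, 33.0, 23.1, 28.7 and 13.1 with vehicle. Indacaterol was higher in 5 of 5 pairs, although its lowest library fell within the vehicle range, and the change was 1.43 ± 0.34 (adjusted p = 0.0023). At 6 and 18 h indacaterol gave means of 17.7 and 24.5, against 31.3 and 31.8 with vehicle, and neither difference was called. The difference at 6 h was -0.78, in the same direction as with mometasone at that time. The change at 6 h was below that at 1 h by 3.43 ± 0.48 (difference of changes -3.43, adjusted p = 5.5e-08).

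With mometasone BHLHE40 was low at the late times. At 6 h it stood at 4.12, 7.32, 4.35, 10.2 and 2.94 with mometasone, against 12.9, 41.9, 41.3, 41.8 and 18.6 with vehicle, without overlap, a change of -2.21 ± 0.34 (adjusted p = 1.3e-07). At 18 h it stood at 4.34, 6.06 and 5.14 with mometasone, against 33.9, 40.4, 39.1 and 13.6 with vehicle, a change of -2.30 ± 0.41 (adjusted p = 6.6e-06), or -2.66 without replicate 5, and these groups did not overlap either. At 1 h the mean was 15.0 ± 1.67 with mometasone (SD, n = 4) and 20.4 ± 4.55 with vehicle (SD, n = 5), not called. Mometasone had no replicate 5 there, and its libraries ran from 13.85 to 17.4. The vehicle replicate 5 library was the lowest of its group at 12.7, and every other vehicle library lay above every mometasone library. The lowering at 1 h was not called without replicate 5 either. At 2 h mometasone was lower in 5 of 5 pairs (-0.89, not called), and with the replicate number as a block the same difference had an adjusted p of 4.9e-07, same-numbered libraries having deviated together there. The change at 6 h was below that at 1 h by 1.81 ± 0.50 (difference of changes -1.81, adjusted p = 0.018; 2.92% of all genes called), a call lost without replicate 2, 3 or 4.

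Both responses were seen in the combinations. With mometasone and indacaterol at 1 h BHLHE40 stood at 53.8, 60.9, 72.7, 66.3 and 38.5, which is below every library given indacaterol alone and above every vehicle library (1.47 ± 0.34 against vehicle, adjusted p = 0.0020). The difference from indacaterol alone was -1.18 ± 0.34 and not called (adjusted p = 0.063), but was called with the replicate number as a block (adjusted p = 7.2e-11), the numbers pairing these libraries. It was 1.86 higher with the pair than with mometasone alone at 1 h and 1.28 higher at 2 h, both called. Indacaterol with carbachol gave the highest BHLHE40 group mean of all, 167 at 1 h, with 174, 178, 184, 187 and 112 (2.98 ± 0.34). At 6 h all 3 combinations with mometasone were low, at -2.66 with indacaterol, -2.01 with carbachol and -2.45 with both, and at 18 h at -2.49, -2.48 and -2.24 in the same order. Carbachol alone at 1 h held 34.5, 44.8, 52.1, 33.8 and 26.5, above every vehicle library, with 0.87 ± 0.34 (adjusted p = 1, not called).

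**Figure D3:**
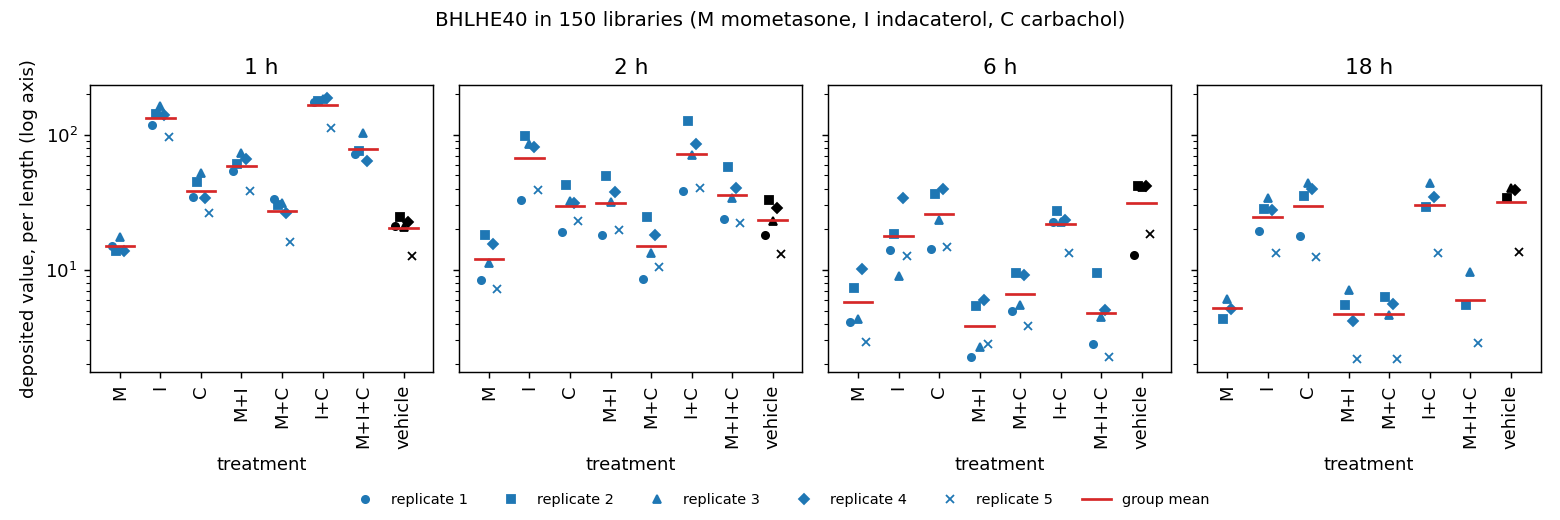
BHLHE40 in each of the 150 libraries by treatment (M mometasone, I indacaterol, C carbachol and their combinations, then vehicle), in a panel per time; points are libraries shaped by replicate number, red lines are group means, and the y axis is the deposited per-length value on a log scale. Indacaterol groups are high at 1 h, and at 6 and 18 h every group with mometasone lies near or below 10.

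The other repressors of the loop changed late and by less. CRY2 rose with mometasone at 6 h, where it stood at 8.84, 9.77, 8.91, 8.81 and 6.79, against 4.83, 5.15, 3.31, 5.46 and 4.46 with vehicle. The groups did not overlap, and the change was 0.78 ± 0.14 (1.71-fold, adjusted p = 7.3e-06). It was also called in the 3 combinations with mometasone at 6 h, at 0.93 with indacaterol, 0.84 with carbachol and 0.85 with both, in all 14 settings each. At 18 h CRY2 averaged 6.18 ± 0.26 with mometasone (SD, n = 3) and 6.25 ± 1.61 with vehicle (SD, n = 4), not called.

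CRY1, the other cryptochrome gene, went down where CRY2 went up. At 6 h it stood at 28.4, 16.9, 30.3, 30.7 and 17.5 with mometasone, against 46.1, 45.4, 49.5, 37.8 and 34.4 with vehicle. The groups did not overlap and the change was -0.79 ± 0.25 (adjusted p = 0.027), but the call was lost in 4 of 14 settings, among them leaving out replicate 1, 2 or 4. CRY1 was also called with mometasone and carbachol at 6 h (-0.76) and with mometasone and indacaterol at 18 h (-0.90), calls lost in 6 and 5 of 14 settings. With mometasone alone at 18 h, where it had no replicate 5, CRY1 ran from 26.9 to 30.8. Vehicle ran from 24.4 to 55.4 with a median of 49.9, and only its lowest library was not above every mometasone library. That change was -0.57 and not called.

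PER3 and DBP fell at 18 h. PER3, a PER repressor with a weaker role in the mouse loop, stood at 7.67, 8.92 and 7.57 with mometasone at 18 h, against 21.0, 21.7, 22.2 and 8.62 with vehicle. The vehicle library at 8.62 is replicate 5, and it falls within the mometasone range. The change was -1.02 ± 0.28 (adjusted p = 0.0073) and -1.33 without replicate 5 (adjusted p = 7.1e-07). It lost its call in 5 of 14 settings, among them leaving out replicate 2 or 4. The change at 18 h was below that at 1 h by 1.20 ± 0.37 (difference of changes -1.20, adjusted p = 0.047), which was lost in 8 of 13 settings. In the combinations at 18 h PER3 changed by -1.36 with indacaterol added, -1.19 with carbachol added and -1.56 with all 3 agents. Each of these calls held except where the 2 groups compared were fitted alone. At 6 h PER3 was called with all 3 agents (-0.65, lost in 6 of 14 settings) and in no other group of the fit over all libraries. With indacaterol and carbachol at 6 h it changed by -0.47, called under a replicate block (adjusted p = 2.0e-04) where the numbers pair the libraries. PER3 was low with indacaterol alone too, at 7.20, 7.89, 6.96, 9.11 and 7.08, against 11.5, 13.5, 11.6, 13.3 and 10.0 with vehicle, without overlap but not called. Also below every vehicle library at 6 h were mometasone with carbachol (6.75 to 9.33), indacaterol with carbachol (6.26 to 9.94) and all 3 agents (5.74 to 9.46). Mometasone alone, mometasone with indacaterol, and carbachol alone overlapped vehicle.

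DBP stood at 5.89, 4.78 and 6.91 with mometasone at 18 h, against 14.0, 12.4, 17.0 and 25.4 with vehicle, where 25.4 is replicate 5. The groups did not overlap, and the change was -1.37 ± 0.32 (adjusted p = 0.0011) and -1.18 without replicate 5 (adjusted p = 8.0e-04), called in all 14 settings. With mometasone and indacaterol, mometasone and carbachol, and all 3 agents the DBP changes at 18 h were -1.05, -1.23 and -1.11. DBP was called earlier in 2 groups, at 2 h with mometasone and indacaterol (-0.82 ± 0.27, adjusted p = 0.037) and with all 3 agents (-0.93 ± 0.27, adjusted p = 0.011). The first of these was lost in 6 of 14 settings and the other in 2. Indacaterol alone at 18 h gave a DBP mean of 20.7 ± 6.58, against 17.2 ± 5.79 with vehicle, not called.

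NR1D1 was lower with mometasone at both late times. At 6 h it stood at 1.36, 1.36, 1.10, 0.66 and 2.02 with mometasone, against 2.13, 2.92, 1.53, 2.60 and 3.19 with vehicle, lower in 5 of 5 pairs although the ranges overlapped (-0.60 ± 0.15, adjusted p = 0.0022). At 18 h it stood at 1.98, 1.61 and 2.90 with mometasone, against 4.17, 3.42, 3.67 and 4.06 with vehicle, without overlap (-0.63 ± 0.18, adjusted p = 0.011). The call at 6 h was lost without replicate 4, and that at 18 h without replicate 2 or 3, among others. With mometasone and carbachol at 6 h NR1D1 changed by -0.53 ± 0.15 (adjusted p = 0.0090), a call lost without replicate 4 and without replicate 5 (-0.44, adjusted p = 0.079). NR1D1 shares 263 exon bases with THRA on the other strand, and whether the counting used strand is not given in the sources used here. THRA averaged 24.3 ± 1.99 with mometasone and 15.4 ± 0.88 with vehicle at 6 h (0.63 ± 0.13, adjusted p = 1.9e-04), so it moved the other way. The part of shared reads was not tested. DBP likewise shares 661 exon bases with SPHK2 (0.17 ± 0.11 at 18 h, adjusted p = 0.42), and PER3 shares 868 with UTS2, which averaged 0.13 with mometasone and 0.045 with vehicle at 18 h.

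In the fit over all libraries without a replicate block, PER2, NR1D2 and CLOCK were called in no comparison with vehicle. Fits without replicate 5 lowered more members in some groups at 6 and 18 h, with counts given below. PER2, a core repressor like PER1, was the lowest of the 10, with a mean of 1.64 over all libraries. At 6 h it stood at 1.75, 1.68, 2.39, 2.04 and 1.22 with mometasone, against 1.06, 1.06, 1.37, 1.25 and 1.19 with vehicle, overlapping it and not called. Indacaterol libraries held 0.76, 0.89, 0.77, 0.60 and 0.77 at that time, below every mometasone library and every vehicle library. PER2 was called at 6 h for mometasone and indacaterol against indacaterol (0.70), a comparison in which 11.5% of all genes were called, and lost the call in 3 of 13 settings. Libraries of that pair held 1.51 to 2.87, above every vehicle library. Both the pair and the low indacaterol reference therefore entered the difference. In comparisons where the numbers pair the libraries, the replicate block gave calls for PER2 with mometasone and carbachol at 2 h (0.36) and 18 h (-0.47) and with all 3 agents at 6 h (0.33). NR1D2 averaged 13.6 ± 4.02 with mometasone and 22.8 ± 4.78 with vehicle at 6 h (SD, n = 5 each), a change of -0.73 that was not called. With the replicate number as a block the same difference had an adjusted p of 8.4e-06. Same-numbered libraries did not all deviate together in that comparison. CLOCK was called under the block with indacaterol and carbachol at 1 h (0.53, adjusted p = 0.0080). It kept group means between 4.85 and 9.64 over all 32 groups, a span of 1.99-fold, close to the 1.96-fold of CRY1 and the 2.10-fold of CRY2.

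**Figure D4:**
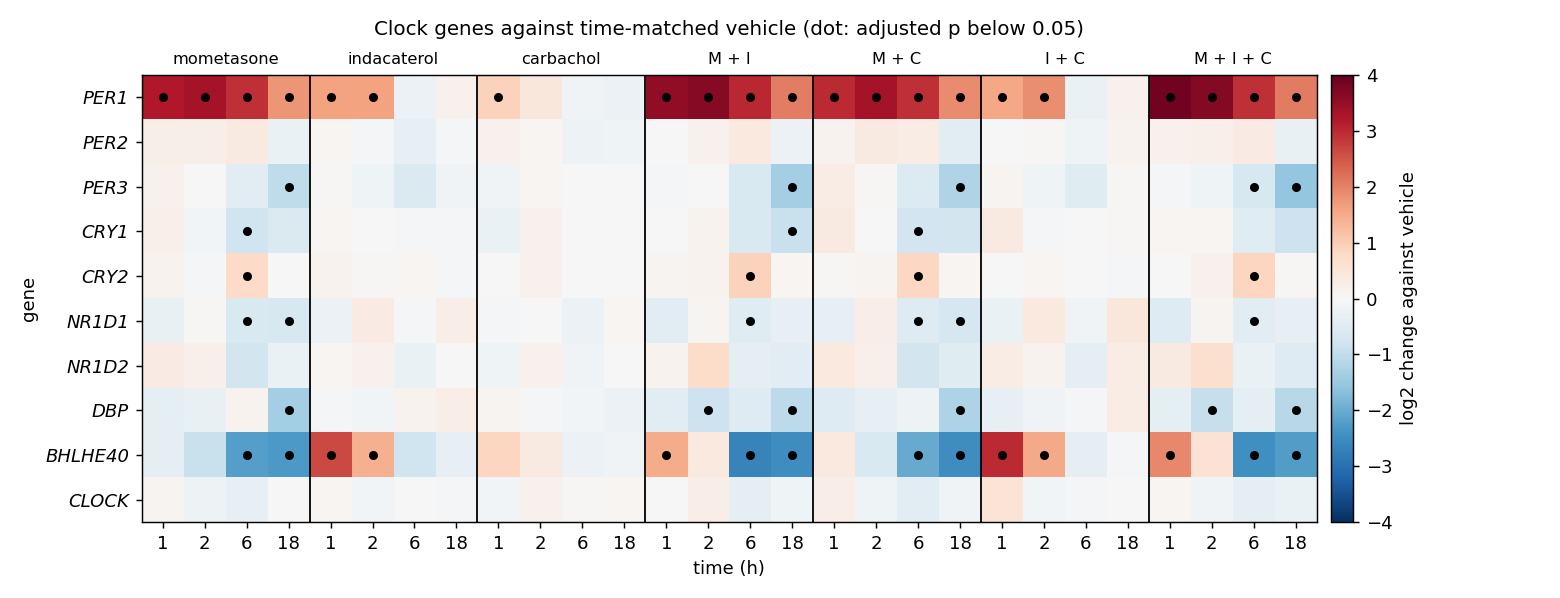
Log2 change of each of the 10 clock genes against time-matched vehicle for the 7 treatments (M mometasone, I indacaterol, C carbachol) at 1, 2, 6 and 18 h; red is higher and blue lower than vehicle, and a black dot marks an adjusted p below 0.05 over all genes. PER1 is red in every group with mometasone, BHLHE40 is blue with a dot there at 6 and 18 h, and no dot stands in the rows of PER2, NR1D2 and CLOCK in the fit without a replicate block.

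Counted over the 10 members, mometasone raised 1 and lowered none at 1 h, where 0.472% of all genes were called, and raised 1 and lowered none at 2 h (1.99% of all genes). It raised 2 and lowered 3 at 6 h (9.61%) and raised 1 and lowered 4 at 18 h (9.1%). The median change of the 10 was -0.38 at 6 h and -0.42 at 18 h, against 0.02 and 0.04 over all genes. Indacaterol raised 2 at 1 h (1.4%) and 2 at 2 h (3.91%), PER1 and BHLHE40 at both times, and changed none at 6 h (1.74%) or 18 h (0.202%). Carbachol raised PER1 alone at 1 h (0.0809%) and changed none at 2 h (0.027%), 6 h (0%) or 18 h (0.00674%). Without replicate 5 mometasone lowered 4 members at 6 h and 5 at 18 h. The same vehicle libraries enter every comparison of 1 time, so the treatments' calls are not independent of each other.

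Mometasone with indacaterol raised 2 at 1 h (2.44% of all genes), raised 1 and lowered 1 at 2 h (7.65%), raised 2 and lowered 2 at 6 h (17.7%) and raised 1 and lowered 4 at 18 h (13%). With carbachol the mometasone counts were 1 raised at 1 h (0.742%), 1 raised at 2 h (2.21%), 2 raised and 3 lowered at 6 h (10.2%) and 1 raised and 4 lowered at 18 h (9.88%). Indacaterol with carbachol raised 2 at 1 h (2.4%) and 2 at 2 h (4.45%), and changed none at 6 h (1.99%) or 18 h (0.0944%). All 3 agents raised 2 at 1 h (3.15%), raised 1 and lowered 1 at 2 h (8.06%), raised 2 and lowered 3 at 6 h (15.2%) and raised 1 and lowered 3 at 18 h (10.8%). Without replicate 5 the counts lowered were 3 for mometasone with indacaterol at 6 h, 4 and 5 for mometasone with carbachol at 6 and 18 h, and 4 for all 3 agents at 18 h, the other counts being as given. In the comparisons with vehicle where same-numbered libraries deviated together, a replicate block moved some counts by more than 1.5 times. The count was 2 against 1 for mometasone at 2 h, 3 against 1 for mometasone with carbachol at 2 h, and 4 against 2 for all 3 agents at 2 h. It was 8 against 5 for all 3 agents at 6 h and for mometasone with carbachol at 18 h, and 1 against none for indacaterol with carbachol at 6 h and at 18 h. The members added were BHLHE40 with mometasone and carbachol (-0.61) and with all 3 agents (0.58) at 2 h, and NR1D2 with all 3 agents at 2 h (0.65) and with mometasone and carbachol at 18 h (-0.50). CRY1 (-0.48) and DBP (-0.36) were added with all 3 agents at 6 h, CRY1 (-0.73) with mometasone and carbachol at 18 h, and NR1D1 (0.45) with indacaterol and carbachol at 18 h. Other calls made by the block were NR1D1 at 2 h with indacaterol (0.33) and with indacaterol and carbachol (0.39), CRY1 at 18 h with all 3 agents (-0.75), and NR1D1 (-0.32) and NR1D2 (-0.44) at 18 h with mometasone and indacaterol.

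Of 21 further genes of the clock pathway, 19 passed the filter on low values. Mometasone raised 2 of the 19 at 1 h, 3 at 2 h, 4 at 6 h and 3 at 18 h, where 0.472%, 1.99%, 9.61% and 9.1% of all genes were called; it lowered none. NPAS2, which encodes a relative of CLOCK that also pairs with BMAL1, averaged 31.7 ± 11.3 with mometasone and 8.50 ± 2.60 with vehicle at 6 h (1.75 ± 0.26), and 40.0 ± 4.06 and 9.01 ± 2.61 at 18 h (2.07 ± 0.32). ARNTL, the BMAL1 gene and a target of REV-ERB repression, averaged 10.4 ± 2.25 with mometasone and 5.31 ± 1.71 with vehicle at 18 h (0.89 ± 0.30, adjusted p = 0.041). TEF, a D-box activator gene related to DBP, rose at 6 h (1.02 ± 0.16), so it moved up at a time when DBP was not called. NFIL3, which encodes a D-box repressor, rose with mometasone at all 4 times, by 0.67, 1.18, 0.88 and 1.10. USP2, which encodes a deubiquitinase that acts on clock proteins, rose with mometasone at 1, 2 and 6 h, by 1.02, 1.60 and 1.19.

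Indacaterol raised 3 and lowered 1 of the 19 at 1 h (1.4% of all genes called) and at 2 h (3.91%), and raised 1 and lowered 1 at 6 h (1.74%). NFIL3 rose by 0.87 and 0.83 and USP2 by 0.74 and 1.19 at 1 and 2 h. CSNK1E, the gene of a kinase that phosphorylates PER proteins, averaged 268 ± 36.4 with indacaterol and 132 ± 14.3 with vehicle at 2 h (1.01 ± 0.10), and was also called at 1 h (0.61) and 6 h (0.43). CIART, a repressor gene of the loop, fell with indacaterol by 0.66, 0.63 and 0.61 at 1, 2 and 6 h (changes -0.66, -0.63 and -0.61) and rose with mometasone at 2 h (0.59). Carbachol changed none of the 19 at any time. In vehicle CIART was lower at 6 h than at 2 h (-0.80 ± 0.16) and higher at 18 h than at 6 h (0.74 ± 0.17), and TEF was lower at 6 h than at 2 h (-0.77 ± 0.16).

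**Figure D5:**
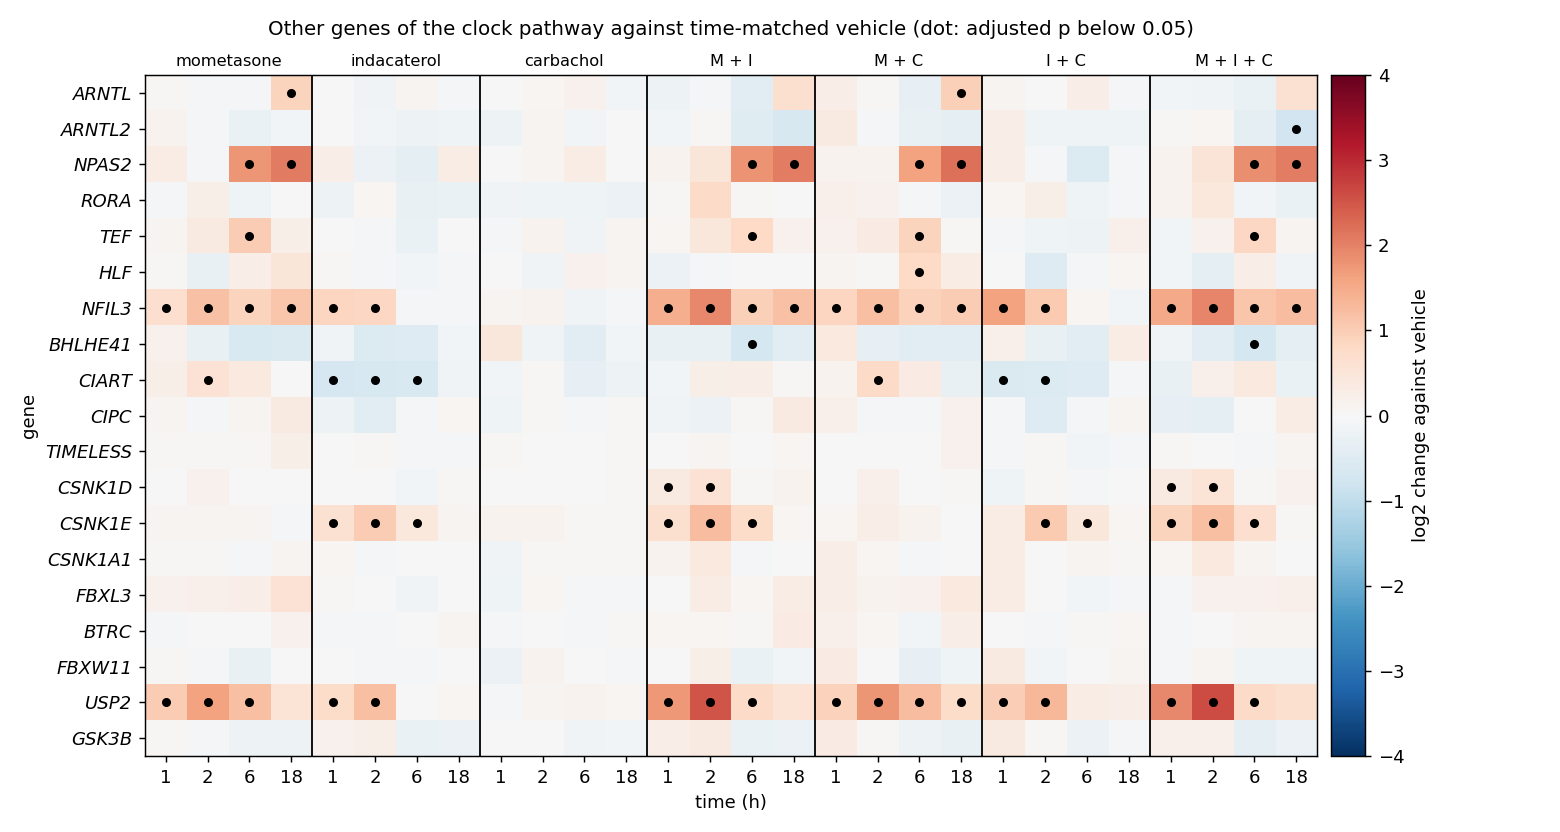
Log2 change against time-matched vehicle of the 19 other clock pathway genes that passed the filter, for the 7 treatments (M mometasone, I indacaterol, C carbachol) at 1, 2, 6 and 18 h; red is higher and blue lower than vehicle, and a black dot marks an adjusted p below 0.05 over all genes. NFIL3 and USP2 are red in the mometasone groups at all 4 times and NPAS2 at 6 and 18 h, and CSNK1E is red in the indacaterol groups at 1 and 2 h.

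The genes whose group means followed PER1 most closely over the 32 groups were KLF9 (Pearson r = 0.96), CEBPB (0.96), NFKBIA (0.95), FOXC2 (0.95) and DDIT4 (0.93). BHLHE40 was followed most closely by DUSP8, RND3 and SLC25A25, at 0.96, 0.95 and 0.95. For PER2 the 3 nearest were TEF (0.82), VASP (0.76) and CIART (0.75), of which TEF and CIART belong to the clock pathway. For PER3 they were TMCO3, ANAPC1P4 and PEA15, for CRY1 SDC2, SLC12A2 and MPP7, and for CRY2 NAV2, TRABD2B and TMEM43. Those given for NR1D1 are BAIAP2L1 and SERPINB1. For NR1D2 the 3 nearest were UBASH3B, TRPC6 and RHOQ, for DBP RAB33A, NXNL2 and RPL29P19, and for CLOCK LRP12, PANK3 and ARHGEF12. Among the members themselves the highest correlations were of PER3 with CRY1, NR1D1 with NR1D2 and PER3 with NR1D2, each 0.75, while PER1 with PER3 gave -0.16 and PER1 with BHLHE40 -0.18. These describe 32 group means that share treatments, times and replicate numbers.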

How the data were processed

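Deposited values of 29273 genes in 150 libraries were used. Per the submitters' processing notes bcl2fastq 2.17.1.14, STAR 2.4.2a and GRCh38 were used; quantifier and strand are not given in the sources here. The authors call the deposited signal TPM, but the columns do not sum to a fixed total, so it was treated as a normalised signal, with depth unknown. A total of 10 columns were not used: 4 without values and 6 headed 8 h, a time no label gives.

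log2(value + 1) was fitted with limma 3.58.1 in R 4.3.3 (32 groups, trended variance, 118 residual degrees of freedom), after keeping genes at 1 or more in at least 5 libraries. P-values were adjusted by Benjamini-Hochberg over all 14827 genes within each comparison and time. The fit was checked on simulated data with independent noise for each gene and library. That check therefore did not cover the shifts between replicate numbers seen in these data. The 14 alternatives were a pseudocount of 0.1, no filter or one at 5, scaling by median ratio or to the same total, each time alone, the compared groups only, a replicate block, each replicate left out, and leaving out libraries over 20% mitochondrial.

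Replicate numbers were taken to pair groups where every same-numbered pair's deviations over all genes tested correlated above 0.1: at 1, 2, 6 and 18 h in 2, 6, 3 and 6 of 7 comparisons with vehicle, and in vehicle for 18 h against 6 h. Some genes that the naming rule takes are not reported here. All 10 members were named; up to 4 called genes a comparison were named from the pathway list. The members and lists were chosen with earlier results of these data known. Promoters came from RefSeq (GRCh38.p14) and gene positions from GENCODE 29 (GRCh38).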

Additional observations from a re-analysis of the deposited data

Results flagged for a closer look

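In 20 of 300 groups of a member and a condition, 1 library stood apart from the rest by Dixon's test, and chance flags about 1 in 20 such groups. Of these libraries 13 were replicate 5. Their values were as follows for the low members. PER2 was 0.54 with carbachol at 18 h, PER3 was 8.62 with vehicle at 18 h, and CRY1 was 29.1 with carbachol at 6 h, 23.69 with mometasone and carbachol at 1 h and 20.01 with indacaterol and carbachol at 1 h. NR1D2 was 15.3 with indacaterol and carbachol and 10.84 with vehicle at 18 h, BHLHE40 was 112.34 with indacaterol and carbachol at 1 h, and CLOCK was 3.27 with mometasone and carbachol at 1 h and 3.47 with vehicle at 18 h. DBP was high in replicate 5, at 10.82 with mometasone and indacaterol at 2 h, 10.27 with all 3 agents at 6 h and 21.29 with vehicle at 2 h.

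The other 7 libraries had other numbers. PER1 was high in carbachol replicate 1 at 1 h (45.88), in mometasone with indacaterol replicate 3 at 2 h (346.5) and in vehicle replicate 4 at 18 h (32.62), and low in mometasone with indacaterol replicate 4 at 18 h (104.7). High values were PER2 at 2.87 with mometasone and indacaterol at 6 h, PER3 at 18.74 with all 3 agents at 1 h and NR1D2 at 41.25 with mometasone at 1 h, each in replicate 3.

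Changes against vehicle that differed between times by a test of the difference itself were those of PER1 with mometasone (18 h minus 1 h, -1.42), indacaterol (6 h minus 1 h, -1.84, and 18 h minus 1 h, -1.41) and carbachol (6 h minus 1 h, -1.06, and 18 h minus 1 h, -1.15). BHLHE40 differed with mometasone (6 h minus 1 h, -1.81, and 18 h minus 1 h, -1.91) and indacaterol (6 h minus 1 h, -3.43, and 18 h minus 1 h, -2.97), and PER3 with mometasone (18 h minus 1 h, -1.20). On the log2 scale only, the effect of mometasone on PER1 also differed with and without indacaterol, at -1.22 at 1 h and -1.30 at 2 h. The term for all 3 agents at 1 h was 1.49. As given above, some of these calls were lost in other settings. They include both carbachol differences, that of PER3, that of BHLHE40 with mometasone at 6 h minus 1 h, and both interaction terms at 1 h.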

How the results depend on the processing

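No direction reversed among the called changes of the 10 genes or the PER1 results, in any of the 14 settings. PER1 with carbachol at 1 h kept a change of 0.93 but lost its call when the 1 h libraries were fitted alone (adjusted p = 0.225) or the compared groups were (adjusted p = 1), and leaving out 1 replicate gave 0.68 to 1.05. The PER1 interaction of mometasone and indacaterol at 1 h kept -1.22 and lost its call in the same 2 fits (adjusted p = 0.470 and 0.594), and leaving out 1 replicate gave -1.34 to -1.14. PER1 in vehicle at 18 h against 6 h lost its call when scaled to the same total (0.69) and with the compared groups only (0.78), and leaving out 1 replicate gave 0.67 to 0.83.

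The count of members called was 0 for carbachol at 1 h in both of those fits and 0 to 1 leaving out 1 replicate. With the compared groups only it was 1 for indacaterol at 2 h, 1 for indacaterol at 6 h and 3 for mometasone at 18 h, the last also 3 when scaled to the same total. Leaving out 1 replicate gave 3 to 6 for mometasone at 6 h and 3 to 6 at 18 h. With a replicate block the count was 2 for carbachol at 1 h, 2 for indacaterol at 6 h, 2 for mometasone at 2 h, 8 for mometasone at 6 h and 8 at 18 h. Of these only the 2 h value comes from a comparison that met the pairing rule. That rule was set over all genes tested, not over the members, in most of which replicate 5 stood apart. The block ended no call. The causes were not tested. No counts were available, so no counting error could be given, and low members such as PER2 are limited by this most.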
